A study of Mus musculus with 12 samples.

Results

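The 4 classical Fc gamma receptor genes of the mouse, Fcgr1, Fcgr2b, Fcgr3 and Fcgr4, were followed in osteoclasts that had developed with eosinophils, with eosinophil supernatant or with neither. They were found by gene symbol in a count table of 47643 genes, and all 4 were among the 13681 genes with enough counts to be tested. Bulk RNA-seq. had been carried out on 12 libraries in 3 groups of 4. Monocytes from the bone marrow (BMMs) of wildtype BALB/c mice were grown into osteoclasts with M-CSF and RANKL. The labels give M-CSF at 5 ng/µL and RANKL at 10 ng/µL. The study's methods differ: they state RANKL at 10 ng/mL and another M-CSF dose, also in ng/mL. There, M-CSF at 5 ng/mL belongs to the overnight plating beforehand. RNA was taken on day 3 in every group. The control cultures (OCsCtr) were untreated, OCsEo cultures received sorted eosinophils at a BMMs to eosinophils ratio of 1:2, and OCsEoS cultures received eosinophil supernatant in a 1:2 dilution. Both stimuli acted from day 0 for 48 h and were then washed away. The eosinophils came from IL-5tg/4get mice, so that they carried an Il5 transgene that the osteoclasts lacked, and they had been sorted as Siglec-F positive cells. The study describes the libraries of a group as biological replicates. Whether libraries of different groups came from the same mice is not given in the sources used here.

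Fc gamma receptors bind the constant part of IgG and let myeloid cells take up and respond to antibody-coated particles. Fcgr1, the high-affinity receptor, Fcgr3 and Fcgr4 are activating: they have no signalling motif of their own and pass the signal through a partner chain encoded by Fcer1g, whose immunoreceptor tyrosine-based activation motif (ITAM) recruits the kinase Syk. Fcgr2b is the inhibitory receptor, which carries an inhibitory motif (ITIM) in its own tail and recruits phosphatases such as the product of Inpp5d. Osteoclasts share their monocyte origin with macrophages, and the Fcer1g chain is also known as an ITAM partner in osteoclast differentiation. The study asked how eosinophils alter the transcriptome of osteoclasts, and it placed Fcgr3 and Fcgr4 in a phagocytosis gene list drawn from these same libraries, so their direction here is not independent evidence.

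The motifs that set the activating and inhibitory sides apart are shown first, as coding sequence of GENCODE vM21 on GRCm38, 5′ to 3′ along the gene, with the motif in capitals. The ITIM of Fcgr2b lies at chr1:170961071-170961088 on the minus strand, in the last coding exon of each of its 4 coding transcripts that hold it. The ITAM of Fcer1g is 45 bases long and runs over an exon boundary between chr1 positions 171230072 and 171229889 on the minus strand.
Fcgr2b ITIM: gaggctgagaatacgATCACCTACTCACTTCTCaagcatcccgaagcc
Fcer1g ITAM: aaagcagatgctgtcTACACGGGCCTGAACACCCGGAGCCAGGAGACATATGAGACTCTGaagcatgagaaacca

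Fcgr2b (ENSMUSG00000026656, chr1:170958617-170976547, minus strand), Fcgr4 (ENSMUSG00000059089, chr1:171018920-171029761, plus strand) and Fcgr3 (ENSMUSG00000059498, chr1:171051174-171064935, minus strand) form a cluster of 106.3 kb on chromosome 1. Fcgr1 (ENSMUSG00000015947, chr3:96282909-96293969, minus strand) lies apart on chromosome 3. Fcgr2b and Fcgr3 are close relatives in the part that binds antibody: over 509 aligned coding bases 491 were identical (96.5%), whereas the other pairs of receptors had 72.3% to 78.7% identity over the stretches that could be aligned. The longest run of identical bases, 129, is shown with 10 flanking bases on each side and the first difference at either end in capitals, since a read that falls inside it cannot be given to either gene from its letters.
Fcgr2b: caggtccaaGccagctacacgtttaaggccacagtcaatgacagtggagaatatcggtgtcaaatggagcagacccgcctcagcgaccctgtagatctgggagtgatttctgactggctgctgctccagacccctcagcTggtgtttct
Fcgr3: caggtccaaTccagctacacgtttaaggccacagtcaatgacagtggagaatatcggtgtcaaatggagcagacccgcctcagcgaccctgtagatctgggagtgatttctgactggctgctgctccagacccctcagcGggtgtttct

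Of 1733 distinct 50-base stretches in the transcripts of Fcgr3, 166 (9.58%) also occur in Fcgr2b, and of its 100-base stretches 44 (2.54%). Fcgr2b also shares sequence outside the family. Of its 5685 50-base stretches, 395 (6.95%) occur in another gene on either strand, 166 of them in Fcgr3. Of its 5843 100-base stretches, 251 (4.30%) do, 44 of them in Fcgr3. Fcgr1 and Fcgr4 had no 50-base stretch in common with another gene. The read length and the treatment of reads with several matches are not given in the sources used here, so the counts of Fcgr2b and Fcgr3 carry this uncertainty. The genes that overlap the receptors, an antisense gene over Fcgr2b and small RNA genes within Fcgr4 and Fcgr3, had 0 counts in all 12 libraries.

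Fcgr3, known as CD16, was the most abundant of the 4 in every group and was higher with both stimuli. Its level in CPM, which are counts scaled to library size, was 28.5, 27.4, 28.4 and 37.4 in the OCsCtr libraries. It was 51.2, 44.8, 49.1 and 66.4 CPM in OCsEo and 65.1, 50.01, 51.2 and 47.5 CPM in OCsEoS. Every library of either stimulus therefore lay above every untreated library, including OCsCtr 4, which was the highest of the untreated cultures. Over all genes tested, 10.5% separated in this way in OCsEo and 12.6% in OCsEoS. The log2 fold change of Fcgr3 was 0.80 in OCsEo (SE 0.13, edgeR adjusted p = 2.21e-04) and 0.81 in OCsEoS (SE 0.13, edgeR adjusted p = 1.30e-04). A gene is called here when its adjusted p over all genes tested is under 0.05 and its log2 fold change is beyond 0.5 in either direction. By this rule 3.27% of the tested genes were higher and 2.61% lower in OCsEo, against 3.63% higher and 4.11% lower in OCsEoS.

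Fcgr4, the receptor that binds mainly IgG2a and IgG2b, was the scarcest receptor by counts in OCsCtr and was also called higher with both stimuli. OCsCtr libraries held 6.73, 6.47, 7.13 and 8.74 CPM. OCsEo libraries held 11.7, 12.8, 15.2 and 17.1 CPM, all above the controls. OCsEoS libraries held 10.5, 9.58, 8.52 and 12.9 CPM, and the lowest of them was below OCsCtr 4. The log2 fold change was 0.97 in OCsEo (SE 0.16, edgeR adjusted p = 3.31e-04), a fold of 1.96. In OCsEoS it was 0.51 (SE 0.16, edgeR adjusted p = 0.0257), just past the fold threshold. That call was lost when OCsCtr 1, OCsCtr 2, OCsCtr 3 or OCsEoS 4 was left out, with log2 fold changes of 0.47, 0.47, 0.51 and 0.39 and edgeR adjusted p of 0.0717, 0.0757, 0.0561 and 0.103, and also when the trend with gene length was taken out, with 0.38 and an edgeR adjusted p of 0.0904.

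**Figure D1:**
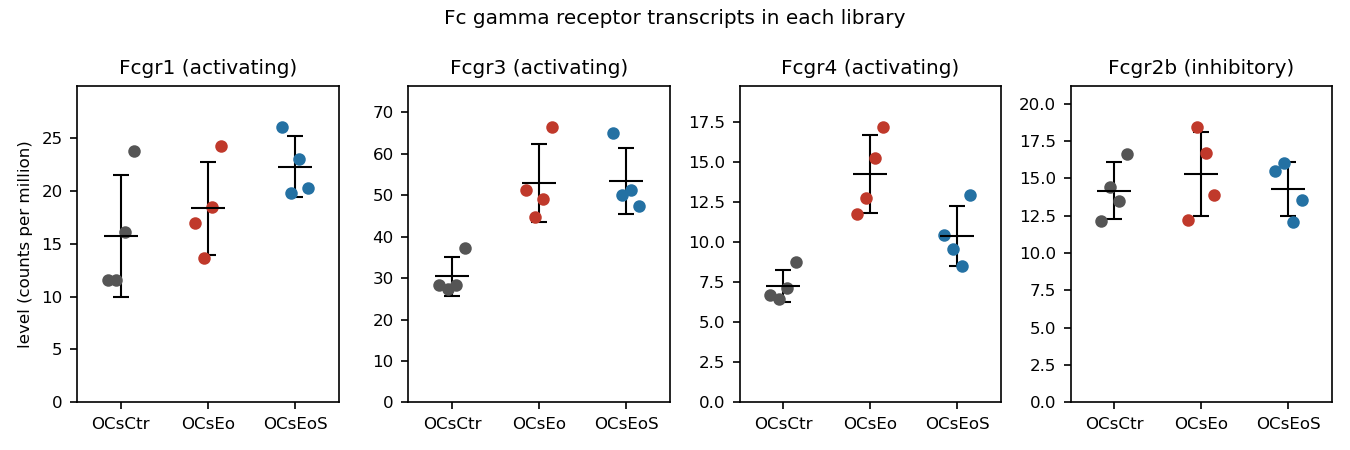
Level of each receptor transcript in CPM (y axis, from 0, a separate scale for each gene) in the 4 libraries of OCsCtr, OCsEo and OCsEoS. Points are libraries, horizontal marks are means and bars are SD. Fcgr3 and Fcgr4 separate OCsEo from OCsCtr, whereas the groups overlap for Fcgr1 and Fcgr2b.

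Fcgr1, known as CD64, had a wide spread among the untreated cultures, at 11.5, 11.5, 16.1 and 23.8 CPM in the 4 OCsCtr libraries. OCsEo libraries held 16.9, 13.6, 18.5 and 24.2 CPM, within or close to the range of the controls. OCsEoS libraries held 26.0, 19.8, 23.0 and 20.2 CPM, above OCsCtr 1, 2 and 3 but not all above OCsCtr 4. The log2 fold change was 0.22 in OCsEo (95% confidence interval -0.20 to 0.63, edgeR adjusted p = 0.523) and 0.50 in OCsEoS (0.08 to 0.91, edgeR adjusted p = 0.0775), and neither was called. OCsCtr 4 decided the second value: without it Fcgr1 was called higher in OCsEoS, with a log2 fold change of 0.77 and an edgeR adjusted p of 0.00456. In OCsEo Fcgr1 was not called with any library left out, and its value was 0.48 without OCsCtr 4, 0.34 without OCsEo 2, 0.10 without OCsCtr 2, 0.09 without OCsCtr 1 and 0.06 without OCsEo 4 (edgeR adjusted p of 0.0749, 0.295, 0.830, 0.833 and 0.906). DESeq2 called Fcgr1 in OCsEoS with all 12 libraries (log2 fold change 0.50, adjusted p = 0.0419).

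Fcgr2b, the inhibitory receptor, stayed in the same range in all groups. Its OCsCtr libraries held 12.2, 14.4, 13.5 and 16.6 CPM, its OCsEo libraries 12.2, 18.4, 16.7 and 13.9 CPM, and its OCsEoS libraries 15.5, 16.01, 12.1 and 13.6 CPM. The groups overlapped and no order of the groups could be read from them. The log2 fold change was 0.11 in OCsEo (95% confidence interval -0.19 to 0.41, edgeR adjusted p = 0.676) and 0.01 in OCsEoS (-0.29 to 0.31, edgeR adjusted p = 0.974). A difference beyond these bounds in either direction is outside the interval, while smaller ones could not be detected with 4 libraries a group.

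Of the 4 receptors, 2 were thus called higher with each stimulus, Fcgr3 and Fcgr4, and none was called lower. Both comparisons share the OCsCtr libraries, so a high or low control moves them together. The stimuli were also set against each other directly, a comparison in which 0.380% of all genes tested were called (52 of 13681, and 1524 at an unadjusted p under 0.05), and none of the 4 receptors was, by edgeR or by DESeq2. Fcgr4 alone had an unadjusted p under 0.05 there. It had a log2 fold change of -0.45 in OCsEoS against OCsEo (SE 0.16, edgeR adjusted p = 0.259). Fcgr3 differed between the stimuli by 0.02 (95% confidence interval -0.24 to 0.28, edgeR adjusted p = 0.977). For Fcgr1 the difference was 0.28 (-0.13 to 0.69, edgeR adjusted p = 0.634) and for Fcgr2b -0.10 (-0.40 to 0.20, edgeR adjusted p = 0.844).

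**Figure D2:**
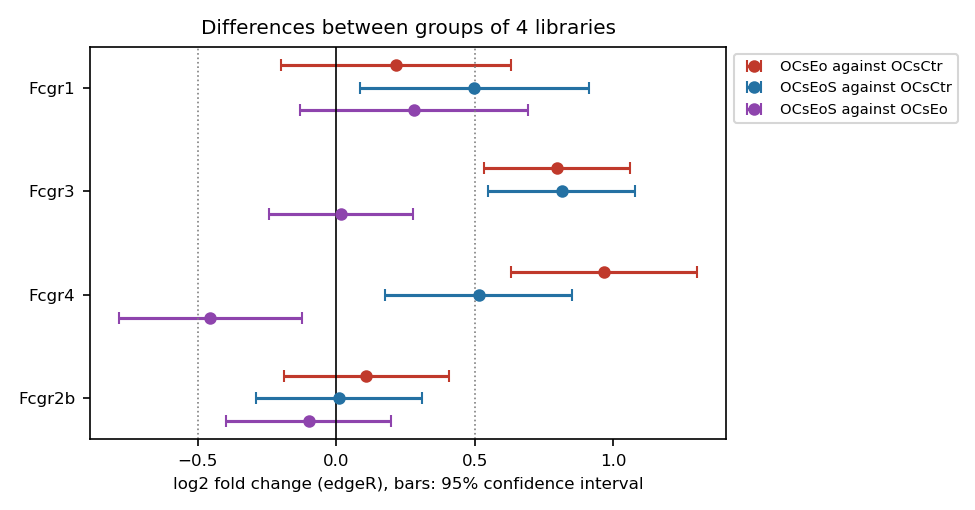
Log2 fold change of each receptor (x axis) in the 3 comparisons of groups of 4 libraries. Points are edgeR estimates, bars are 95% confidence intervals, and dotted lines mark the fold threshold of 0.5. The intervals of Fcgr3 with both stimuli and of Fcgr4 in OCsEo lie wholly above 0.5, and all intervals of Fcgr2b include 0. The intervals are not adjusted for the number of genes, and edgeR's adjusted test against 0.5 called none of the receptors.

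Activating and inhibitory receptors were compared within each library, as the log2 ratio of the counts of each activating gene to those of Fcgr2b, which does not depend on sequencing depth. The ratio of Fcgr3 to Fcgr2b was 1.22, 0.92, 1.07 and 1.17 on the log2 scale in OCsCtr. It was 2.07, 1.28, 1.56 and 2.26 in OCsEo and 2.07, 1.64, 2.08 and 1.81 in OCsEoS. Each stimulated library thus had a higher ratio than each control, by 0.69 on average in OCsEo and by 0.80 in OCsEoS. The exact two-sided permutation test gave p = 0.0286 for both, the smallest that 4 libraries against 4 allow, and 0.0643 after Benjamini-Hochberg adjustment over the 9 ratio tests, which does not pass 0.05.

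The ratio of Fcgr4 to Fcgr2b was -0.85, -1.15, -0.92 and -0.93 in OCsCtr, -0.05, -0.53, -0.13 and 0.31 in OCsEo, and -0.56, -0.74, -0.51 and -0.07 in OCsEoS. The groups separated from OCsCtr with both stimuli, by 0.86 and 0.50 on the log2 scale (exact permutation p = 0.0286, adjusted 0.0643, for each). Fcgr4 had fewer counts than Fcgr2b in every control library, and more than Fcgr2b only in OCsEo 4. The ratio of Fcgr1 to Fcgr2b overlapped between all groups, with mean differences from OCsCtr of 0.16 in OCsEo (exact permutation p = 0.657, adjusted 0.657) and 0.55 in OCsEoS (p = 0.0571, adjusted 0.103). Between the stimuli no ratio passed: the differences of OCsEoS from OCsEo were 0.39 for Fcgr1, 0.11 for Fcgr3 and -0.37 for Fcgr4 (exact permutation p = 0.257, 0.657 and 0.2, adjusted 0.331, 0.657 and 0.3).

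**Figure D3:**
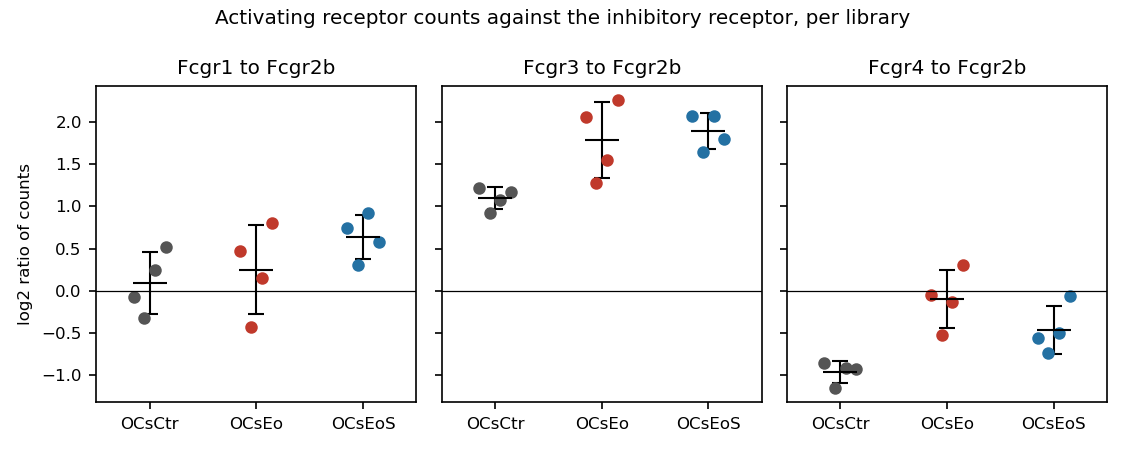
Log2 ratio of the counts of each activating receptor to those of the inhibitory Fcgr2b (y axis, shared scale) in each library. Points are libraries, horizontal marks are means and bars are SD. The 4 OCsCtr libraries lie below all 8 stimulated libraries for Fcgr3 and Fcgr4, but not for Fcgr1.

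To compare levels between genes, CPM were divided by the gene length in the deposited table. Fcgr3 was highest in OCsCtr, at 17.5 ± 2.69 CPM per kb (SD, n = 4). Fcgr1 followed with 6.08 ± 2.23 and Fcgr4 with 5.78 ± 0.81, 2 neighbours in the order that did not differ beyond their spread, and Fcgr2b was lowest with 2.45 ± 0.32. In OCsEo the levels were 30.4 ± 5.43 for Fcgr3, 11.3 ± 1.94 for Fcgr4, 7.08 ± 1.71 for Fcgr1 and 2.64 ± 0.48 for Fcgr2b. In OCsEoS they were 30.8 ± 4.58 for Fcgr3, 8.59 ± 1.11 for Fcgr1, 8.26 ± 1.503 for Fcgr4 and 2.47 ± 0.31 for Fcgr2b, with Fcgr1 and Fcgr4 again within each other's spread.

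Summed per kb, the 3 activating receptors stood at 11.97 ± 1.26 times the level of Fcgr2b in OCsCtr, 19.1 ± 5.56 times in OCsEo and 19.5 ± 2.52 times in OCsEoS, and the lowest OCsEo library (13.0) was just under the highest control (13.1). Fcgr2b made up 7.77% of the summed level of the 4 genes in OCsCtr, 5.27% in OCsEo and 4.95% in OCsEoS, while Fcgr3 made up 55.3%, 59.1% and 61.3%. These values depend on the lengths given to Fcgr2b and Fcgr3, 5790 and 1736 bases in the table, which merges all annotated exons. The longest single transcript of each gene was also used, 3544 bases for Fcgr2b and 1347 for Fcgr3, with the other 2 lengths as before. The sum was then 8.59 ± 0.87 times Fcgr2b in OCsCtr, 13.8 ± 4.04 times in OCsEo and 14.1 ± 1.85 times in OCsEoS. With the shortest coding transcript of the basic annotation, 1084 bases for Fcgr2b and 1324 for Fcgr3, a choice made after seeing the data, it was 2.66, 4.28 and 4.38 times in OCsCtr, OCsEo and OCsEoS, and Fcgr2b then ranked second of the 4 receptors in every group.

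Fcgr1, Fcgr3 and Fcgr4 have in common a stretch before the start of transcription that the selection by name did not use. The hexamer GAGGAA, a form of the site bound by PU.1 (the product of Spi1) and related ETS factors, was searched in RefSeq promoter windows of GRCm38.p6. Both strands were read, from 250 bases before to 50 bases after each start. This exact hexamer was found in 28.3% of 32851 windows of 300 bases. It was in the windows of Fcgr1, Fcgr3 and Fcgr4, but not in that of Fcgr2b. Shorter forms were not counted, and the bases GGAA within the hexamer also occur before the start of Fcgr2b. The hexamer began 55 bases before the start in Fcgr1, 22 bases in Fcgr4, and 6 or 15 bases in Fcgr3 for its 2 annotated starts. The 120 bases before the start are shown along the gene for these 3, with the match in capitals, where it reads as its reverse complement TTCCTC; for Fcgr3 the start is the second of the 2.
Fcgr1, chr3:96293970-96294089, minus strand: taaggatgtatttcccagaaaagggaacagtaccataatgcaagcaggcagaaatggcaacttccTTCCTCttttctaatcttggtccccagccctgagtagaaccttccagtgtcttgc
Fcgr3, chr1:171059395-171059514, minus strand: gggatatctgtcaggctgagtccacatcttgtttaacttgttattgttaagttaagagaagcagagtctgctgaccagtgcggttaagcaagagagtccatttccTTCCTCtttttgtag
Fcgr4, chr1:171018806-171018925, plus strand: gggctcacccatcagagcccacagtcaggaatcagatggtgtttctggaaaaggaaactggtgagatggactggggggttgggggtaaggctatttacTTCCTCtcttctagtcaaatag

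The bases TTC and GAA set 4 apart, the kind of element bound by STAT6, were in 6.95% of all windows and in none of the 4 receptors'. These matches describe letters in a window, and no binding was measured here. The gene of PU.1 itself, Spi1, stood at 678 ± 14.0 CPM in the controls, 670 ± 4.87 with eosinophils and 616 ± 34.1 with supernatant (SD, n = 4). Its log2 fold change was -0.02 in OCsEo (edgeR adjusted p = 0.867) and -0.14 in OCsEoS (edgeR adjusted p = 0.0509). None of the 10 transcription factors known for Fc receptor genes was called with either stimulus by edgeR or by DESeq2. In each comparison 3 passed an edgeR adjusted p of 0.05 with smaller folds, and 4 and 5 had an unadjusted p under 0.05. Over all 13681 genes tested, 1239 higher and 1143 lower genes passed that adjusted p in OCsEo, and 1620 and 1531 in OCsEoS. An unadjusted p under 0.05 was found for 4069 genes in OCsEo and 4686 in OCsEoS.

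The partner chain Fcer1g was far more abundant than the receptors by counts and behaved differently with the 2 stimuli. It held 182 to 223 CPM in OCsCtr, 250 to 294 CPM in OCsEo and 200 to 224 CPM in OCsEoS. The OCsEo libraries lay above all others, while OCsEoS overlapped with the controls. Its log2 fold change was 0.35 in OCsEo (edgeR adjusted p = 0.00158), under the fold threshold, and 0.01 in OCsEoS (edgeR adjusted p = 0.965). The difference between the stimuli, tested directly, was -0.35 (edgeR adjusted p = 0.0261), also under the threshold. Fcer1g lies on the same chromosome as the cluster, at chr1:171229572-171234365. Tyrobp, the adaptor DAP12, had 831 ± 55.7 CPM in OCsCtr, against 896 ± 61.1 in OCsEo and 814 ± 22.9 in OCsEoS (SD, n = 4), and it was not called.

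Of the 15 other Fc receptors and adaptors, 8 were tested, and with either stimulus 1 was called lower and none higher. This gene was Fcgrt, the neonatal Fc receptor that recycles IgG, which fell from 161 to 188 CPM in OCsCtr to 108 to 138 CPM in OCsEo and 83.8 to 129 CPM in OCsEoS. Its log2 fold changes were -0.51 (edgeR adjusted p = 0.00166) and -0.73 (edgeR adjusted p = 4.86e-05), opposite in sign to those of Fcgr3 and Fcgr4. Fcrl6, Fcamr and Pigr, which encode other immunoglobulin receptors, had 0 counts in every library.

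In the ITAM pathway downstream of the activating receptors, all 25 listed genes were tested; 4 were called lower and none higher in OCsEo, and 3 lower and 1 higher in OCsEoS. The median log2 fold change of the list was -0.09 in OCsEo and -0.19 in OCsEoS, against -0.01 over all genes tested in both. The kinase gene Src fell by 0.55 and by 0.66 on the log2 scale in OCsEo and OCsEoS, and the scaffold gene Gab2 fell by 0.75 and by 0.86. The kinase subunit gene Pik3cb fell by 0.52 and by 0.59, and the phospholipase gene Plcg1, at 6.48 CPM in OCsCtr, fell by 0.71 in OCsEo, with a value of -0.30 (edgeR adjusted p = 0.340) in OCsEoS. Fyn, a Src family kinase, was the gene called higher, with 0.56 in OCsEoS and 0.35 (edgeR adjusted p = 0.0459) in OCsEo. Syk, the kinase that binds the ITAM, had 91.2 ± 7.80, 79.6 ± 10.6 and 72.5 ± 6.49 CPM in OCsCtr, OCsEo and OCsEoS (SD, n = 4), log2 fold changes of -0.20 and -0.33 and edgeR adjusted p of 0.161 and 0.0130, under the fold threshold.

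On the inhibitory side, none of 12 tested genes was called in OCsEo by edgeR or by DESeq2. An unadjusted edgeR p under 0.05 was found there for 5 of them, and for 4069 of all 13681 genes tested. In OCsEoS 1 gene of the list was called higher and none lower. That gene was Dok2, an adaptor that dampens kinase signalling, with 185 ± 12.6 CPM in OCsCtr and 279 ± 26.5 CPM in OCsEoS (SD, n = 4), a log2 fold change of 0.59. In OCsEo Dok2 held 242 to 270 CPM, above the 166 to 194 CPM of the controls. Its log2 fold change there was 0.45 to 0.46 under alternative settings, below the fold threshold. Dok2 was not called between the stimuli. Inpp5d and Ptpn6, which encode the phosphatases SHIP-1 and SHP-1 recruited by inhibitory motifs, had log2 fold changes of -0.14 and -0.03 in OCsEo and -0.18 and -0.10 in OCsEoS, and neither was called. The medians of the list were -0.13 and -0.17.

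Of 26 genes for the actin machinery of the phagocytic cup, 25 were tested; 1 was called higher in OCsEo, and 1 higher and 3 lower in OCsEoS. Coro1a, which encodes the phagosome coat protein coronin 1A, was the gene called higher in both, with log2 fold changes of 0.56 and 0.53. It held 372 to 398 CPM in the controls, below all OCsEo (542 to 609) and OCsEoS (535 to 591) libraries. Rac2, Myo10 and Pip5k1c fell in OCsEoS by 0.60, by 0.55 and by 0.51 on the log2 scale; they encode a small GTPase, an unconventional myosin and a lipid kinase. In OCsEo their values were -0.33, -0.24 and -0.41. Over the 5 pathway lists, 6 genes were called in OCsEo and 10 in OCsEoS. The lists held 8 (other Fc receptors), 25 (ITAM), 12 (inhibitory), 25 (actin) and 10 (transcription factors) tested genes. Of all genes tested, 3.27% were called higher and 2.61% lower in OCsEo, against 3.63% and 4.11% in OCsEoS.

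**Figure D4:**
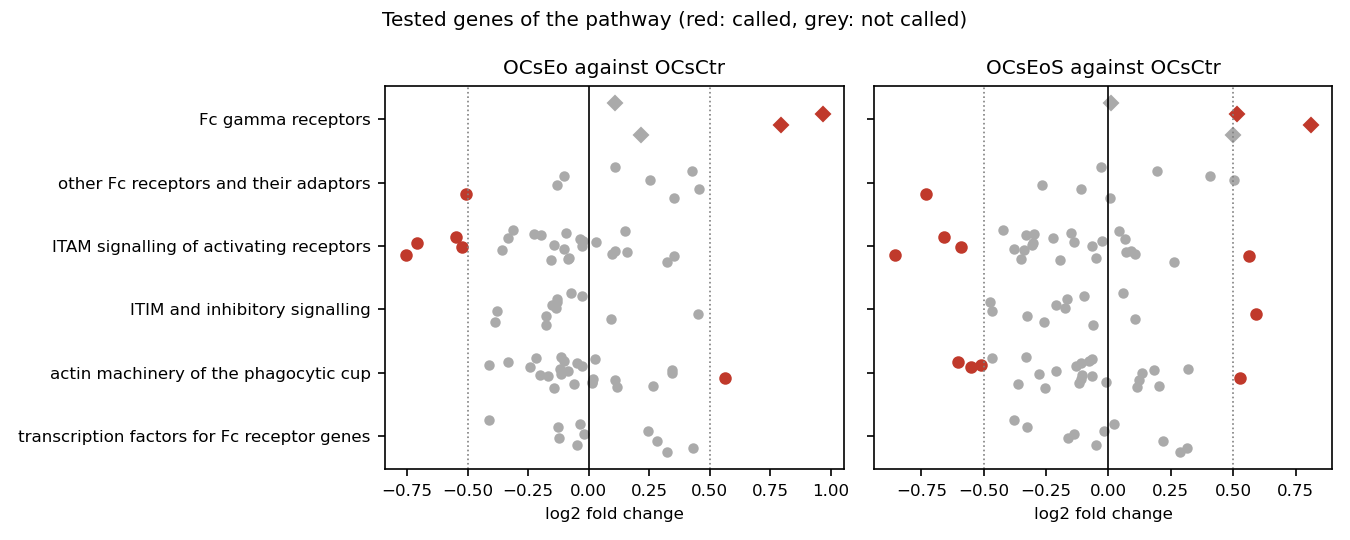
Log2 fold change (x axis) of the tested genes of 5 pathway lists and of the 4 receptors (diamonds) in OCsEo and in OCsEoS against OCsCtr. Red marks genes called, grey marks genes not called, and dotted lines mark the fold threshold of 0.5. Fcgr3 lies to the right of every listed gene in both panels and Fcgr4 in OCsEo only, whereas most genes of the lists lie between the dotted lines.

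Around the cluster on chromosome 1, within 200 kb on either side, the annotation holds 25 other genes, of which 13 were tested. In OCsEo 1 of them was called, Pcp4l1 (chr1:171173262-171196268), with mean levels of 2.26 CPM (OCsCtr), 4.81 (OCsEo) and 1.55 (OCsEoS) and a log2 fold change of 1.09 (edgeR adjusted p = 0.0410). None was called in OCsEoS against OCsCtr. With the stimuli set against each other, Pcp4l1 was called lower in OCsEoS than in OCsEo (log2 fold change -1.64, edgeR adjusted p = 0.0453). The median log2 fold change of the 13 was 0.03 in OCsEo and -0.18 in OCsEoS. Around Fcgr1 9 of 51 other genes were tested. The histone gene Hist2h2be was called lower with both stimuli (-0.73 and -0.76), and the antisense gene Gm20632 in OCsEoS (-1.33), with -0.72 (edgeR adjusted p = 0.1002) in OCsEo. Because the counting is not stated to use strand, reads of Gm20632 and of the gene on its other strand cannot be told apart.

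**Figure D5:**
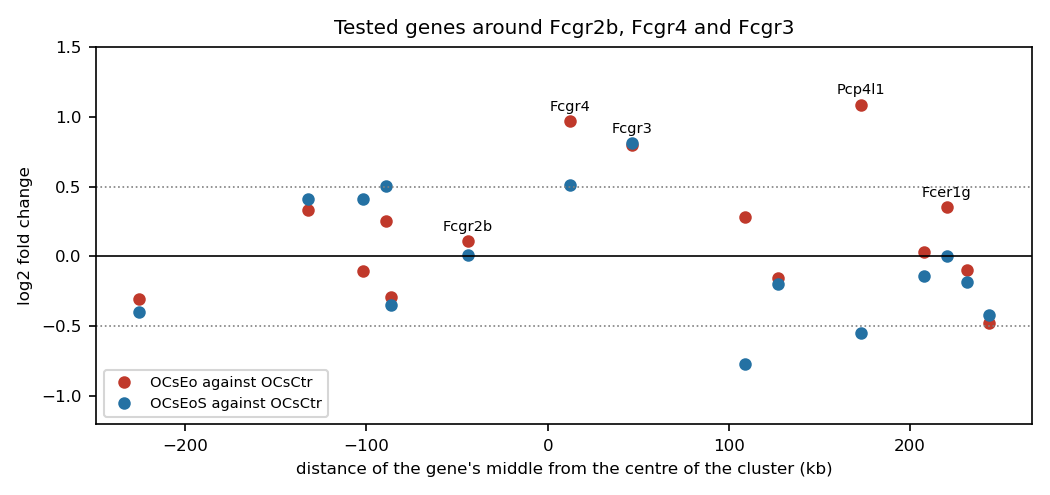
Log2 fold change (y axis) of the tested genes within 200 kb of the Fcgr2b, Fcgr4 and Fcgr3 cluster against the distance of the gene's middle from the centre of the cluster in kb (x axis). Red points are OCsEo against OCsCtr, blue points OCsEoS against OCsCtr, and dotted lines mark 0.5. Fcgr4 and Fcgr3 were called with both stimuli; 1 tested gene is not plotted.

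Across the 12 libraries, the log2 CPM of Fcgr3 had a Pearson correlation of 0.79 with Fcgr4 and 0.76 with Fcgr1, while Fcgr2b had correlations of 0.10 to 0.31 with the other 3. These are descriptions over libraries of 3 groups, and differences between groups enter them. Among 10630 genes, those most like Fcgr3 were Lamp2 (0.98), Gatm (0.98) and Adgre1 (0.98), the last of which encodes the macrophage protein F4/80. Those most like Fcgr1 were Ms4a6b (0.97), Ms4a6d (0.94) and Tlr2 (0.91), and those most like Fcgr4 were Vat1 (0.94), Npy (0.94) and Rnf130 (0.94). For Fcgr2b they were Gm4705 (0.89), 2310001H17Rik (0.86) and Ppp1r10 (0.81).

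Fc gamma receptors are also expressed by other myeloid cells, B cells and NK cells, and in bulk RNA fewer cells of a type cannot be told apart from less RNA per cell. Osteoclast markers were abundant in every library. Of the 12, 8 were called lower with each stimulus and none higher, and their summed level ranged from 28668 to 34847 CPM without stimulus, 18392 to 23512 with eosinophils and 15220 to 22476 with supernatant. The osteoclast integrin gene Itgb3 fell by 0.99 and by 0.91 on the log2 scale. Of 10 macrophage and monocyte markers, 2 were called higher in OCsEo, and 3 higher and 1 lower in OCsEoS, with summed levels of 2360 to 2690, 2175 to 2533 and 1962 to 2357 CPM. Cd14 had log2 fold changes of 0.58 and 0.69 and Adgre1 of 0.46 and 0.56, of which that of Adgre1 in OCsEo was under the threshold, while Csf1r had -0.44 and -0.57 and was called lower in OCsEoS. The part of these shifts in the receptor values was not tested.

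Transcripts of eosinophils were still measured in OCsEo. Of 13 eosinophil markers, 8 were tested and 3 were called higher in OCsEo: Alox15 (0.104 to 0.653 CPM without stimulus, 6.24 to 16.7 with eosinophils and 0.178 to 1.13 with supernatant), Siglecf (0.218 to 0.653, 2.53 to 3.28 and 0.237 to 1.30) and Il5, which was at 1.52 to 4.18 CPM in OCsEo and at 0 in every OCsEoS library. In OCsEoS 1 eosinophil marker, Prg2, was called lower. The summed level of the list was 60.9 to 78.5 CPM in the controls, 69.0 to 97.1 with eosinophils and 54.0 to 61.8 with supernatant, and no listed gene was at 0 in every library. Most of this sum was Ccr3, a chemokine receptor gene, at 59.6 ± 6.03, 48.7 ± 3.19 and 50.7 ± 2.49 CPM in OCsCtr, OCsEo and OCsEoS (SD, n = 4), with a log2 fold change of -0.29 in OCsEo (edgeR adjusted p = 0.0164), under the fold threshold. Prg2, which encodes the eosinophil major basic protein, stood at 5.53 ± 1.92 CPM in OCsCtr and 5.49 ± 1.39 in OCsEo, and Epx, the eosinophil peroxidase gene, at no more than 0.479 CPM in any library. In OCsEoS, where Alox15 and Siglecf were at or under 1.30 CPM, Fcgr3 held 47.5 to 65.1 CPM. The part of the eosinophil transcripts in the values of Fcgr3, Fcgr4 and Fcer1g was not tested.

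Neutrophil markers moved in the same direction in OCsEo: Elane and Camp were called higher there (log2 fold changes 0.99 and 0.51), 2 of 12 tested, none was called in OCsEoS by edgeR or DESeq2 (5 at an unadjusted edgeR p under 0.05), and Mpo, Ltf and Ngp were called lower in OCsEoS than in OCsEo. Their summed level was 342 to 489 CPM in the controls, 496 to 649 with eosinophils and 390 to 451 with supernatant, again with no gene at 0 throughout, and its part in the value of Fcgr4 was not tested. No B cell, NK cell, T cell, mast cell or basophil marker was called with either stimulus by edgeR or DESeq2. An unadjusted edgeR p under 0.05 was found for 2 B cell markers in OCsEo and 1 T cell marker with each stimulus. Over all 13681 genes tested, 4069 had such a p in OCsEo and 4686 in OCsEoS. B cell markers summed to 23.2 to 60.5, 49.2 to 56.4 and 36.2 to 57.6 CPM, and none of the 8 was at 0 throughout. NK cell markers summed to at most 1.99 CPM in any library, and Ncr1, Prf1 and Klre1 were at 0 in all 12. T cell markers reached at most 4.49 CPM in sum and mast cell and basophil markers at most 7.77 CPM, with Cma1 at 0 in all 12.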

How the data were processed

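Raw counts of 12 libraries were used as the authors deposited them. The authors had trimmed reads with fastp, aligned them with HISAT2 2.0.5 to GRCm38/mm10 and counted them per gene with featureCounts; annotation release, strandedness and read length are not given in the sources used here. Total counts were 27837530 to 40327869 per library. The receptors had 194 to 1917 counts per library, so that library spread and not counting error set the precision. Of the 47643 gene identifiers, 47224 were present in GENCODE vM21. Coordinates were compared for the 4 receptors only, and theirs were the same there.

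Counts were analysed in R 4.3.3 with edgeR 4.0.16: genes passing filterByExpr (minimum count 10), TMM scaling (0.968 to 1.03), 1 quasi-likelihood fit of all 12 libraries, F-tests, and Benjamini-Hochberg adjustment over 13681 genes. DESeq2 1.42.0 was an alternative, next to other scalings, filters, thresholds, a gene length trend, a replicate block and each library left out. Ratios used a pseudocount of 0.5 and exact permutation of 70 splits. Deviations of same-numbered libraries were only weakly correlated (-0.04 to 0.09, against -0.11 to 0.12 for other pairs), so the main fit was unblocked. Most same-numbered pairs had a positive correlation and most other pairs a negative one, so this check cannot exclude a weak pairing. Replicates differed beyond counting noise (chi-square per degree of freedom 9.99 to 35.7).

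Members and lists were chosen with earlier results of these data known. Named were the 4 receptors, listed genes called in either comparison with OCsCtr plus Fcer1g, Tyrobp, Syk, Inpp5d, Ptpn6 and Spi1, neighbours called, markers called or at 0 throughout, and the 3 genes most correlated with each receptor (prior count 2, mean log2 CPM of at least 1). Ccr3, Epx, Fcrl6, Fcamr and Pigr were named after their values were seen. Some genes and motifs are not reported here. The scripts were tested on simulated counts.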

Additional observations from a re-analysis of the deposited data

Results flagged for a closer look

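In 24 sets of 4 libraries examined (receptor levels, ratios to Fcgr2b and the activating sum in each group), 1 held a library far from the rest: Fcgr3 in OCsCtr 4, at 37.4 CPM against 27.4 to 28.5 CPM in the other controls. Dixon's test marks about 1 set in 20 by chance, so 1 in 24 is the number chance gives. The same library was the highest control for Fcgr1, Fcgr2b and Fcgr4.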

How the results depend on the processing

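The calls of Fcgr3 with both stimuli and of Fcgr4 in OCsEo held under all alternatives and with each library left out, except when edgeR tested whether a change exceeded 0.5. There adjusted p were 0.301 (Fcgr3, 0.80) and 0.141 (Fcgr4, 0.97) in OCsEo and 0.225 (Fcgr3, 0.81) and 1.00 (Fcgr4, 0.51) in OCsEoS, and 0 receptors were called. With the gene length trend taken out, Fcgr4 in OCsEoS had 0.38 and was not called, leaving 1 receptor. Fcgr1 in OCsEoS was called by DESeq2 on all 12 libraries (0.50) and on 8 (0.50, adjusted p = 0.0327), and with a replicate block (0.56, edgeR adjusted p = 0.0143), which changed no other call of a receptor; the cause was not tested.

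With 1 library left out, log2 fold changes in OCsEoS ranged from 0.37 to 0.77 for Fcgr1 (called in 1 of 8 fits), -0.066 to 0.094 for Fcgr2b and 0.39 to 0.61 for Fcgr4 (lost in 4 of 8 fits), and 1 to 3 receptors were called. Between the stimuli the ranges were -0.20 to 0.0022 for Fcgr2b and -0.087 to 0.14 for Fcgr3. Ratios to Fcgr2b ranged from -0.029 to 0.38 for Fcgr1 in OCsEo and from -0.061 to 0.27 for Fcgr3 between the stimuli. Uncalled values near 0 that crossed it were those of Ptpn6 in OCsEo (-0.050 to 0.0079), Fcer1g (-0.063 to 0.038) and Tyrobp (-0.077 to 0.017) in OCsEoS, and Gab2 (-0.23 to 0.018) and Inpp5d (-0.10 to 0.042) between the stimuli.

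Without a threshold on the fold, 19 pathway genes were called in OCsEo, 28 in OCsEoS and 1 between the stimuli. Over all 13681 genes tested, that rule called 1239 higher and 1143 lower in OCsEo. It called 1620 higher and 1531 lower in OCsEoS, and 13 higher and 68 lower between the stimuli. With the fold threshold and 1 library left out, 5 to 6, 8 to 12 and 0 to 1 pathway genes were called. With the longest transcript as length, OCsCtr levels were 4.00 CPM per kb for Fcgr2b and 22.6 for Fcgr3. The activating sum was 8.59 times Fcgr2b in OCsCtr, 13.8 times in OCsEo and 14.1 times in OCsEoS. With the shortest, the OCsCtr levels were 13.1 and 23.0, and the sum was 2.66, 4.28 and 4.38 times. Exact permutation of ratios cannot go below p = 0.0571 without 1 library, nor exact sign flips of the 4 same-number differences below 0.125, so these give values only.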
